A study of Mus musculus with 24 samples.

Results

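The genes described here encode the respiratory chain and the ATP synthase of the mitochondrial inner membrane, measured in mouse alveolar type II cells. They were chosen by name: every gene on the array whose symbol begins with Nduf, Uqcr, Cox4 to Cox8 or Atp5, or is Sdha, Sdhb, Sdhc or Sdhd, with 1 probe per gene, the brightest on average over all 24 arrays. This gave 90 of the 34832 gene names on the array. Complex I contributed 36 genes and 4 assembly factors, complex II 4 genes, complex III 8, complex IV 20 and complex V 15, with 2 further genes named after ATP synthase (Atp5s and Atp5sl). Cox4nb was taken in by its name but encodes a subunit of an endoplasmic reticulum complex, which leaves 89 respiratory chain genes. Counts below over 87 or 88 measured genes include it, and it was called in none of the 6 comparisons. Of the 90 genes, 87 were well above background on every array, and Cox7b2, Cox8b and Cox8c were below it on every array of at least 1 group.

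The cells were primary murine alveolar type II cells, the surfactant-making cells of the alveolus, grown for 3 days at an air-liquid interface until they formed a monolayer. In the first experiment they received vehicle (DMEM medium) or 100 µM NaHS, which releases hydrogen sulfide (H2S) quickly, for 6 or 24 h. In the second, all cells received 100 µM GYY4137, which releases H2S slowly, and were kept for 24 h in 21% O2 (normoxia) or 85% O2 (hyperoxia), so this experiment has no donor-free group and its comparison is of oxygen levels under the donor. Each of the 6 groups had 4 single-colour arrays. The labels do not say whether replicates came from separate animals or cultures, so p-values measure the spread between these samples, which may be technical.

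The respiratory chain passes electrons from NADH (complex I) and succinate (complex II) through ubiquinone, complex III and cytochrome c to oxygen at complex IV, and the proton gradient it builds drives complex V, the ATP synthase. H2S meets this pathway in opposite ways: at low levels its oxidation feeds electrons to ubiquinone, and at high levels it inhibits complex IV. Alveolar type II cells depend on oxidative phosphorylation for surfactant synthesis, and several complex IV subunits have tissue- or oxygen-dependent isoforms.

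Levels below are log2 processed signals relative to the 75th percentile of the same array, so 0 marks a probe at that percentile, and levels of different probes are not compared. The cell preparation held other cell types. Of 10 alveolar type II markers, 7 or 8 were above background on every array of each group. Their summed log2 level lay between 5.50 and 6.04 at 21% O2 and between 5.17 and 5.52 at 85% O2, where 1 of 8 tested markers fell, and Slc34a2 was above background on 1 of the 24 arrays. All 5 smooth muscle markers and all 6 fibroblast markers were above background on every array of all 6 groups, except that 1 fibroblast value was flagged on 1 vehicle array at 6 h. The smooth muscle sum was 9.86 to 10.22 at 21% O2 and 9.50 to 9.99 at 85% O2 (1 of 5 fell, median difference -0.43). The fibroblast sum was 9.36 to 9.57 against 8.69 to 9.42 (0 called, median -0.40). Some markers of other cell types rose at 85% O2. Of 3 ciliated markers 2 rose (median 0.77), with sums of -0.04 to 0.49 at 21% and 1.10 to 1.86 at 85% O2, without overlap. Of 3 club markers and of 5 endothelial markers 1 each rose, with medians of 0.83 and 0.48. The club sums overlapped, at 0.06 to 2.20 at 21% and 0.52 to 1.85 at 85% O2. The endothelial sums went the other way, from 2.90 to 3.23 at 21% and from 2.28 to 2.94 at 85% O2. Of 7 alveolar type I markers 1 fell (median -0.08), and of 7 macrophage markers 0 were called (median 0.57). The part of this cell mixture in the results was not tested, and in bulk RNA fewer cells of a type and less RNA per cell cannot be told apart.

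Slides limit the comparisons. In the NaHS experiment replicates 1 and 3 of every group were on slide 1 and replicates 2 and 4 on slide 2. Between 54.8% and 57.2% of probes were above background on slide 1, and 67.7% to 73.9% on slide 2. Each slide carried its 6 h arrays in the first row and its 24 h arrays in the second, and its vehicle arrays in the first pair of columns and NaHS arrays in the last, so array position cannot be told apart from time or treatment. Slide 3 held all 21% O2 arrays and slide 4 all 85% O2 arrays, so slide and oxygen cannot be told apart. Between slides 1 and 2, limma with group in the fit called 40 of the 88 measured genes, Cox4nb among them (45.5%), against 48.1% of all 27177 features tested. Of these, 36 were lower on slide 2, and the median slide difference of the 88 genes was -0.12 (log2), against 0.02 for all features. The 4 genes higher on slide 2 were all complex IV isoforms of restricted expression: Cox8b (1.60 on the log2 scale), Ndufa4l2 (1.26), Cox4i2 (1.18) and Cox6b2 (0.80).

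Averaged over its genes, complexes I, II, III and V had group means that spanned at most 0.18 on the log2 scale. The 36 complex I genes averaged 5.11 ± 0.12 (log2, SD over arrays, n = 4) in vehicle and 5.09 ± 0.09 in NaHS at 6 h, 5.23 ± 0.08 and 5.20 ± 0.07 at 24 h, and 5.14 ± 0.06 at 21% and 5.18 ± 0.13 at 85% O2. These 6 means spanned 0.14. The means of the 4 complex II genes spanned 0.18, from 4.77 at 85% O2 to 4.95 in vehicle at 6 h. Complex III spanned 0.18 and complex V 0.16. Within the same replicate number the complex I mean was higher at 24 h than at 6 h in 4 of 4 vehicle pairs, by 0.08 to 0.18, and in 4 of 4 NaHS pairs, by 0.05 to 0.23. This was not particular to complex I. The complex IV mean was higher in 4 of 4 vehicle and 3 of 4 NaHS pairs, and complex III in 3 of 4 and 4 of 4. Complex V was higher in 3 of 4 of each, and complex II in 2 of 4 of each. The groups of the 2 experiments were hybridised on separate slides, so differences between experiments are descriptions.

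Complex IV divided by isoform. Its 12 common subunits had group means within 0.11 of each other, while the 5 genes Cox4i2, Cox6a2, Cox6b2, Cox7a1 and Ndufa4l2, which replace common subunits in some tissues or at low oxygen, spanned 1.01. Their mean was -1.02 in vehicle and -1.09 in NaHS at 6 h, -0.71 and -0.88 at 24 h, -0.08 ± 0.63 (SD, n = 4) at 21% O2 and -0.72 ± 0.37 at 85% O2. The 21% O2 group had the highest mean, and its arrays overlapped those of every other group. The span of 1.01 is between NaHS at 6 h and 21% O2, groups of different experiments on separate slides. Within the NaHS experiment the means ran from -1.09 to -0.71. In each of its groups both slide 2 arrays lay above both slide 1 arrays. With NaHS at 6 h they stood at -0.78 and -0.85 on slide 2 and at -1.42 and -1.31 on slide 1. The part of slides in the span was not tested.

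**Figure D1:**
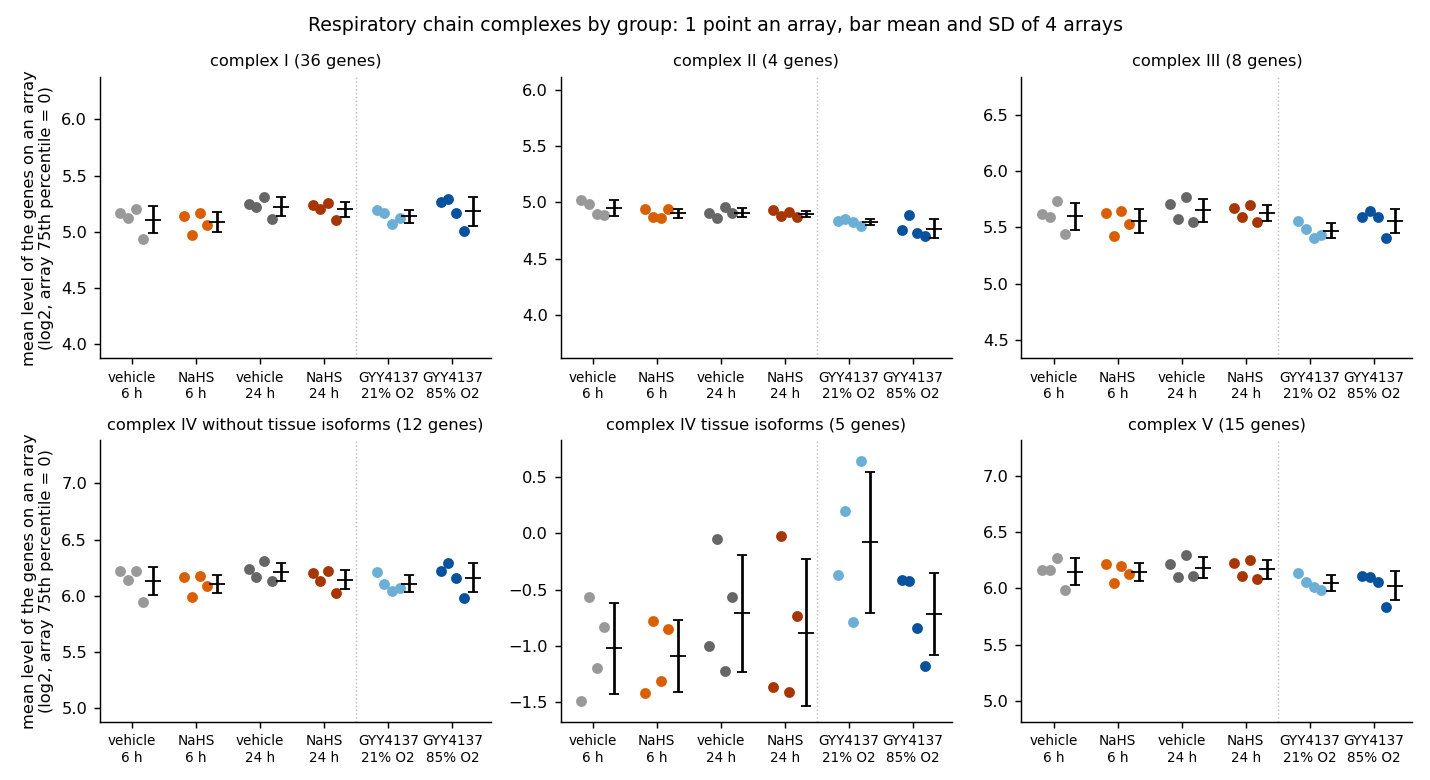
Mean log2 level of the genes of each complex (vertical axis, relative to the array's 75th percentile) in the 6 groups (horizontal axis), with 1 point per array and bars for the mean and SD of 4 arrays. Group means of complex I lie within 0.14 of each other, whereas those of the 5 complex IV isoform genes span 1.01. That span is between groups of different experiments, which were on separate slides.

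Single genes were steady as well. For 77 of the 90 genes the highest and lowest of the 24 arrays lay within 2-fold of each other, and the median range was 0.62 on the log2 scale. Ndufv1, the flavin-bearing subunit that accepts electrons from NADH, had the smallest range, 0.32. The 13 genes above 2-fold included 8 complex IV isoforms, with Ndufa4l2 widest at 6.36. Atp5f1, a stator subunit of complex V, had a range of 1.23. A low value on 1 array sets that range, since vehicle at 6 h replicate 1 stood at 3.99 and the other 23 arrays lay between 4.74 and 5.22. Within groups the genes were less spread than the array as a whole: the median SD was 0.128 against 0.333 for all tested features in the NaHS experiment, and 0.134 against 0.257 in the GYY4137 experiment.

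**Figure D2:**
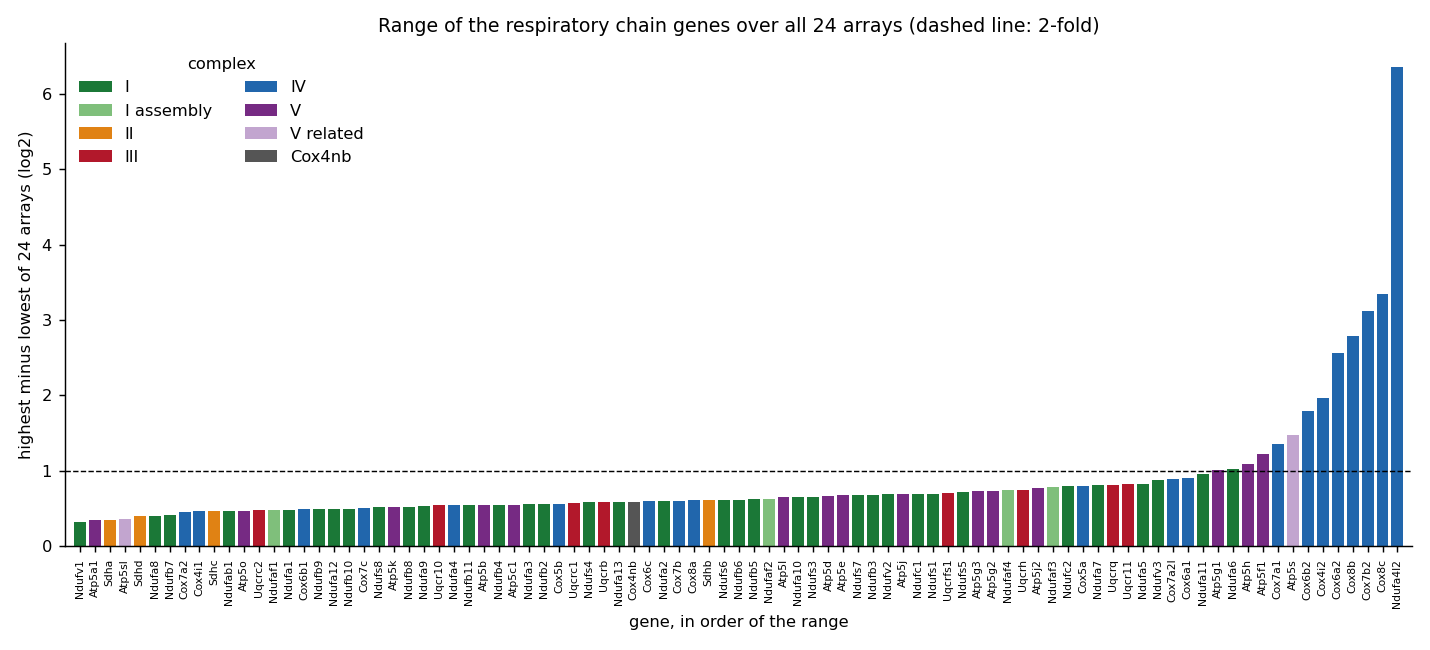
Highest minus lowest log2 level over all 24 arrays (vertical axis) for the genes in order of that range (horizontal axis), with a dashed line at 2-fold. Of the 90 genes, 1 is not drawn, 77 lie within 2-fold, and the widest are dim isoform genes led by Ndufa4l2 at 6.36.

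The first comparison asked what NaHS did at 6 h. No respiratory chain gene was called: the threshold of 0.05 on limma's adjusted p was passed by 0 of 88 genes and by 0% of 27177 features. The fit had no block for slide, so small changes may have been missed. At an unadjusted p under 0.05 there were 0 of these genes and 154 features. The differences ran from -0.29 to 0.32 with a median of -0.02, against -0.00 for all features. For 85 of the 88 genes (96.6%) the 95% interval of the difference excluded a 2-fold change either way, compared with 64.1% of all features. As with the SDs, brightness was not matched in this share or in the same shares below. Fewer genes were above 0 than below (23 of 88), but this count moved to 46 after normexp background correction and to 43 after quantile normalization, and to 11 with median centring.

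The most positive difference was that of Atp5f1, at 0.32 ± 0.19 (SE, log2; limma adjusted p 0.9999). Its vehicle levels at 6 h were 3.99, 4.98, 5.08 and 4.74 and its NaHS levels 5.18, 4.90, 5.02 and 4.95. The groups overlapped, and the low vehicle replicate 1 is the array named above. Atp5o, the stalk subunit that carries oligomycin sensitivity, differed by 0.09 ± 0.07, Cox7a2, the common form of a small complex IV subunit, by -0.10 ± 0.09, and Atp5sl by -0.09 ± 0.07. In no gene did the 4 NaHS arrays lie wholly above or below the 4 vehicle arrays, which happened for 0.616% of all features.

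After 24 h with NaHS the result was the same in count: 0 of 88 genes called, 0% of all features, with 0 genes and 604 features at an unadjusted p under 0.05. Differences ran from -0.46 for Cox4i2, the isoform of complex IV subunit 4 that replaces Cox4i1 in lung and under low oxygen, to 0.14 for Cox6b2, the testis form of subunit 6b. The 95% interval excluded a 2-fold change for 85 of 88 genes, against 61.4% of all features. Ndufv3, a small subunit beside the NADH-binding site of complex I, stood at 5.72, 5.76, 5.59 and 5.79 in vehicle and at 5.40, 5.74, 5.34 and 5.53 in NaHS, a difference of -0.21 ± 0.10 (limma adjusted p 0.9998). Replicates 1, 3 and 4 of NaHS were below every vehicle array and replicate 2 was not. Cox8a, the common form of subunit 8, was the only gene whose groups did not overlap (1.7% of all features did not): vehicle held 7.34, 7.35, 7.45 and 7.40 and NaHS 7.34, 7.24, 7.27 and 7.27, parted by less than the rounding. Its difference was -0.10 ± 0.09 and turned to 0.0025 after quantile normalization. Of the positive estimates, those with the smallest p were Ndufaf1, a complex I assembly factor, and Cox4nb. Ndufaf1 differed by 0.05 to 0.13 when single arrays were left out, and Cox4nb by 0.12 ± 0.11. Marker medians at 24 h were 0.79 for type II, 0.54 for type I, 0.63 for club, -0.28 for fibroblast and -0.27 for smooth muscle. At 6 h they were 0.08, 0.38, -0.78, -0.04 and -0.09 in that order, and 0 were called in these lists at either time. The type II sums at 24 h overlapped, at 5.52 to 6.13 in vehicle and 5.66 to 6.29 in NaHS. The part of these markers in the values was not tested.

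The change of the NaHS difference between 6 and 24 h was tested as an interaction. limma called 0 of 88 genes and 0% of all features, and 0 genes and 296 features had an unadjusted p under 0.05. The estimates were positive for 44 genes and negative for 44. Those with the smallest p were Uqcrfs1 (0.12) and Atp5j (0.09) above 0, and Ndufv3 (-0.21) and Cox7a1 (-0.26) below it. For 83 genes (94.3%) the 95% interval excluded a 2-fold change, against 52.6% of all features. Both time points use different arrays, so this contrast shares arrays with each of the comparisons at 6 and 24 h and in time.

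The next question was how the genes differed between 6 and 24 h in culture without a donor. Complex I and complex IV genes tended to be higher at 24 h. For complex I 29 of 36 estimates were positive, with a median of 0.11 (log2), and for complex IV 15 of 18, with a median of 0.09. Complex V had 9 of 15 positive, complex III 5 of 8 and complex II 1 of 4. Over all 88 genes 63 were positive with a median of 0.07, and over all features 52.8% with a median of 0.02. None of the 88 genes passed the test in the main fit, which had no block for replicate number or slide. Some passed with such a block, as given below. limma called 0 of 88 genes, while 1.16% of all features were called (0.688% higher and 0.475% lower), and 8 genes had an unadjusted p under 0.05. With median centring 1 feature was called in place of 316. Under the other scalings between 28 and 35 complex I estimates were positive. Cell type markers differed between the same groups. For 9 alveolar type II markers the median was -0.57 (1 fell), with sums of 5.84 to 6.80 at 6 h and 5.52 to 6.13 at 24 h. For 4 club markers it was -2.83 (0 called), with sums of 4.59 to 7.56 against 1.23 to 4.27. For 5 smooth muscle markers it was 0.88 (0 called), with sums of 9.36 to 10.22 against 10.24 to 10.41. The club and smooth muscle sums did not overlap between the times. Of 7 macrophage markers 0 were called (median 0.84). Of 7 pericyte markers, a list added after the data were seen, 1 was called higher (median 0.08). The part of these markers in the complex I values was not tested.

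Ndufa6, an accessory subunit of complex I, stood at 4.25, 4.16, 4.24 and 3.81 in vehicle at 6 h and at 4.62, 4.60, 4.60 and 4.38 at 24 h. Every 24 h array was above every 6 h array, and the difference was 0.44 ± 0.12 (SE; limma adjusted p 0.114). With the replicate number as a block the adjusted p was 0.0241, and with slide as a block 0.0393. Within slide 1 the difference was 0.37 and within slide 2 it was 0.51. Ndufv3 moved likewise, from 5.26, 5.57, 5.35 and 5.25 at 6 h to 5.72, 5.76, 5.59 and 5.79 at 24 h, again without overlap. Its difference of 0.36 ± 0.10 had a limma adjusted p of 0.113, or 0.0398 with the replicate block and 0.0413 with slide as a block, and it was 0.35 within slide 1 and 0.36 within slide 2. Both genes were also called after normexp background correction (adjusted p 0.0176 for Ndufa6 and 0.0321 for Ndufv3). Neither was called after quantile normalization (0.0695 and 0.381) or with median centring (0.99998 for both), and Ndufv3 with the mean of its probes differed by 0.27 (0.614).

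In this comparison groups did not overlap for 5 genes, all higher at 24 h: Ndufa6, Ndufv3, Ndufa7 (0.33 ± 0.11), Ndufc1 (0.21 ± 0.09) and Cox7a1, the muscle form of subunit 7a (0.47 ± 0.15). That is 5 of 88 genes, against 7.51% of all features. Ndufa7, Ndufc1 and Atp5s (0.41 ± 0.13, limma adjusted p 0.153) were chosen for naming after their values were seen. Of the estimates below 0, those with the smallest p were Sdhd, a membrane anchor of complex II, at -0.14 ± 0.08, and Atp5g3, a gene for the proton-carrying c ring of complex V, at -0.11 ± 0.09.

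In NaHS-treated cells the time comparison used the other pair of groups. Again 0 of 88 genes were called, with 0.0405% of all features (0.0331% higher and 0.00736% lower), or 11 features against 0 with median centring. Of the complex I estimates 33 of 36 were above 0 (29 to 35 under the other scalings), against 49.5% of all features. Complex III had 7 of 8 above 0, complex IV 12 of 18, complex V 10 of 15 and complex II 2 of 4. The marker medians were -0.41 for type II, -1.31 for club and 0.53 for smooth muscle, with 0 called in these lists. Of 7 macrophage markers 1 was called higher (median 0.65). Ndufa6 read 4.13, 3.92, 4.26 and 3.95 at 6 h and 4.59, 4.61, 4.42 and 4.25 at 24 h, a difference of 0.40 ± 0.12 (limma adjusted p 0.320) in which 1 late array overlapped the early ones. Atp5s, named after ATP synthase factor s, differed by 0.48 ± 0.13 (adjusted p 0.234), and its 24 h arrays, from -1.79 to -1.53, all lay above its 6 h arrays, from -2.22 to -2.01. For Ndufv3 the difference was 0.15. Of the estimates below 0, those with the smallest p were Atp5g3 (-0.14) and Atp5o (-0.10). Groups did not overlap for 6 of 88 genes, 5 higher and 1 lower, against 6.27% of all features.

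**Figure D3:**
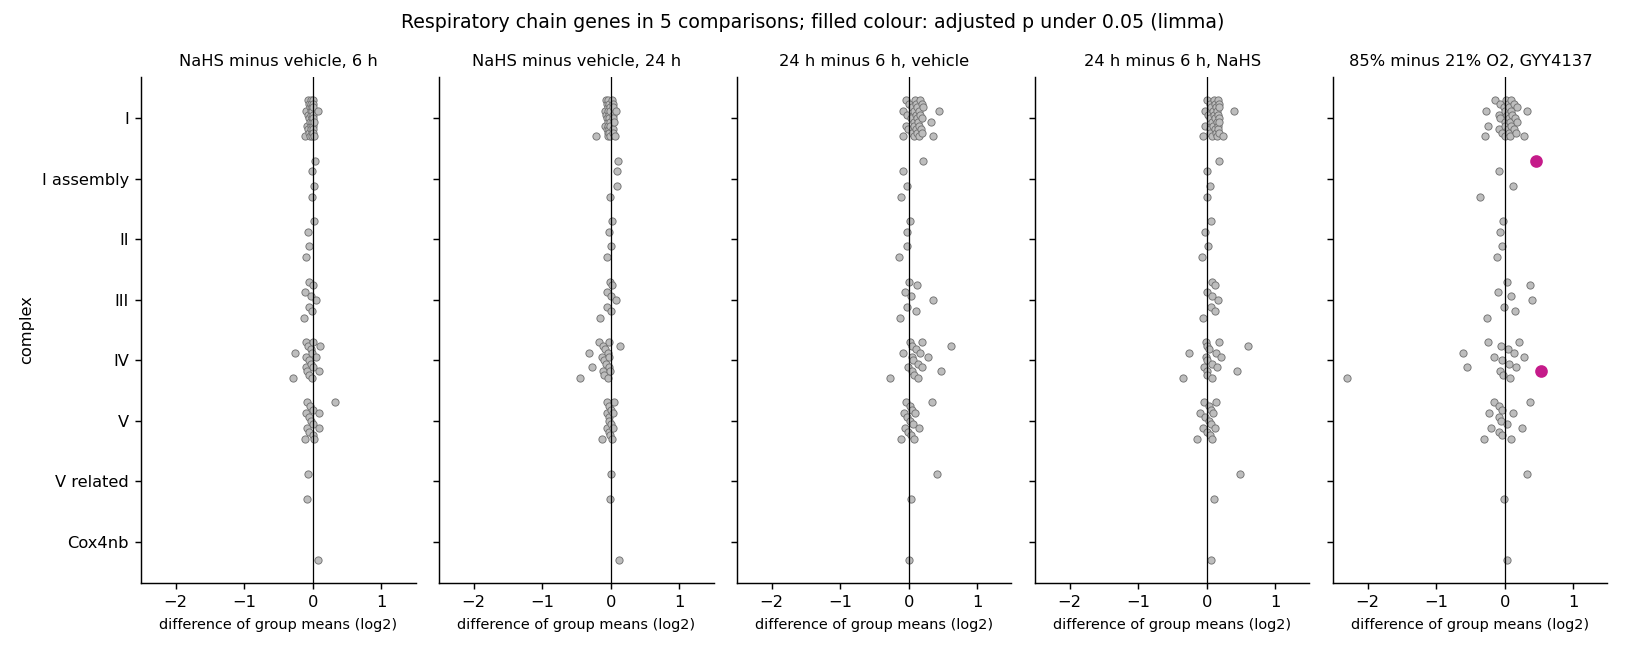
Difference of group means on the log2 scale (horizontal axis) for the respiratory chain genes, by complex (vertical axis), in 5 comparisons, with filled colour for an adjusted p under 0.05 (limma). The first 4 panels, from the NaHS experiment, hold 0 called genes, and the oxygen panel shows Cox6b2 and Ndufaf3, both higher in 85% O2. Again 1 gene is not drawn.

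Of the 6 comparisons, only oxygen under GYY4137 had called genes with these settings, while 3 alternatives called 2 or 3 genes in the vehicle time comparison. In 85% against 21% O2, 3 of 87 measured genes rose (3.45%), Cox6b2 and Ndufaf3 among them, and 0 fell, whereas limma called 17.1% of all 27945 features, 10.7% higher and 6.36% lower. The share of these genes was below that background. The median difference was 0.02 on the log2 scale, against 0.06 for all features, and the 95% interval excluded a 2-fold change for 84 of 87 genes (96.6%) compared with 65.1% of features. Another scaling, centring each array on its median, moved the median of all features from 0.06 to -0.09 and turned the split of calls from 62.7% higher to 34.6% higher. Under it 0 of the respiratory chain genes were called higher and 3 lower (Atp5g1, Ndufaf2 and Uqcrb), so directions in this comparison hold relative to the 75th percentile.

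By complex, 25 of 36 complex I genes, 0 of 4 complex II genes, 5 of 8 complex III genes, 8 of 17 measured complex IV genes and 5 of 15 complex V genes had positive differences. The medians were 0.06, -0.05, 0.06, -0.03 and -0.05 in that order. The complex I count moved to 28 after quantile normalization and to 7, with a median of -0.09, under median centring. The central subunits were close to 0. Ndufs1, the largest iron-sulphur subunit of complex I, differed by 0.18 ± 0.10, Sdha, the catalytic subunit of complex II, by -0.07 ± 0.10, Uqcrfs1, the Rieske iron-sulphur protein of complex III, by 0.09 ± 0.14, Cox5a of complex IV by -0.03 ± 0.10, and Atp5b, the catalytic beta subunit of ATP synthase, by -0.08 ± 0.11. None of these passed the test, and each 95% interval excluded a 2-fold change.

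Ndufaf3 encodes an assembly factor that joins early complex I intermediates. At 21% O2 it stood at 0.39, 0.55, 0.87 and 0.63, and at 85% O2 at 0.95, 1.14, 1.17 and 1.03. Every 85% array was above every 21% array, by little in the case of 21% replicate 3. The difference was 0.46 ± 0.13 (1.38-fold; limma adjusted p 0.0432). It lost its call under quantile normalization (adjusted p 0.0537), median centring (0.115) and with no filter on dim probes (0.0627). Without 1 array the adjusted p ranged from 0.0299 to 0.116, and the call held only without 21% replicate 3. In the NaHS experiment the levels, 0.57 to 1.05, overlapped both oxygen groups. The sequence of its probe is shown because it was called and crosses an intron: its 60 bases match chr9:108468692-108468899 (mm9), a span of 208 bases.
Ndufaf3 probe: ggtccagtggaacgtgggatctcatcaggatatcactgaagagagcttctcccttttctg

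Cox6b2 lies on chromosome 7 (probe at chr7:4703488-4703547, mm9). It read -0.01, -0.20, -0.11 and 0.19 at 21% O2 and 0.22, 0.56, 0.57 and 0.63 at 85% O2, without overlap. The difference was 0.53 ± 0.14 (1.44-fold; limma adjusted p 0.0344). With the replicate number as a block the adjusted p was 0.0512, with median centring 0.0948 and with no filter on dim probes 0.0505. Leaving out arrays gave 0.0267 to 0.0955, with the call kept only without 21% replicate 4 and without 85% replicate 1. This gene was also 0.80 higher on slide 2 than on slide 1, a difference between slides larger than that between oxygen levels, and its levels in the NaHS experiment ran from -0.93 to 0.86. Its common partner Cox6b1 differed by 0.16 ± 0.11 between oxygen levels (adjusted p 0.335).

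**Figure D4:**
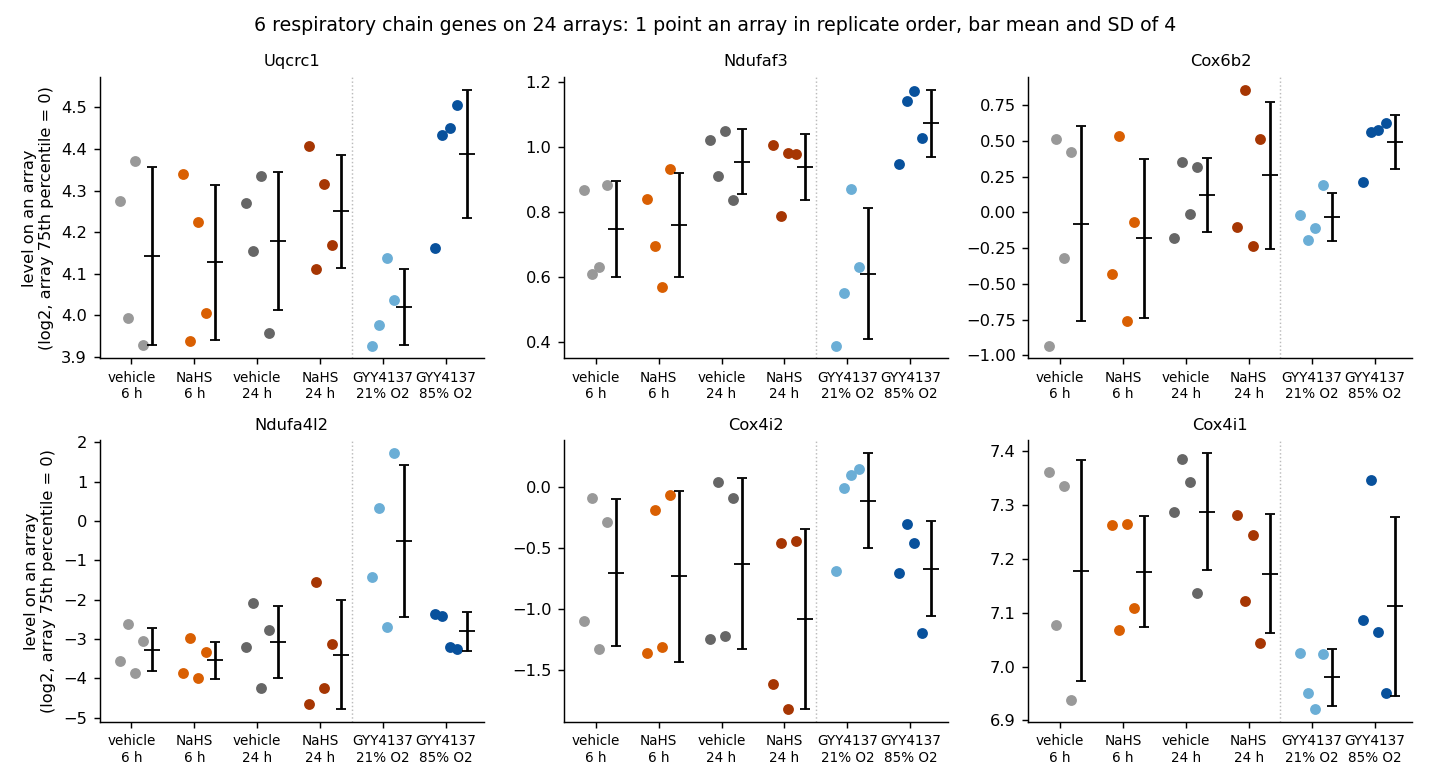
Log2 levels (vertical axes, relative to the array's 75th percentile) of 6 genes on the 24 arrays, by group (horizontal axis), with 1 point per array in replicate order and bars for the mean and SD of 4. Uqcrc1, Ndufaf3 and Cox6b2 are higher in all 4 arrays of 85% O2 than in the 4 of 21% O2, and Ndufa4l2 ranges from -2.69 to 1.72 at 21% O2.

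The low-oxygen isoform genes Ndufa4l2 and Cox4i2 showed large but uneven differences that were not called with all arrays. Ndufa4l2, a paralogue of the complex IV subunit Ndufa4 known as a hypoxia-induced gene, read -1.42, 0.33, -2.69 and 1.72 at 21% O2 and -2.36, -2.41, -3.20 and -3.27 at 85% O2. At 21% O2, replicates 2 and 4 were high, and replicate 3 overlapped the 85% group. The difference was -2.29 ± 0.85 (4.91-fold lower, 95% interval -4.24 to -0.35; limma adjusted p 0.0956) and was not called. Without 21% replicate 3 it was -3.02 with an adjusted p of 0.0333. In the NaHS experiment all 16 arrays lay between -4.65 and -1.56, with slide 2 higher than slide 1 by 1.26. Ndufa4 itself differed by 0.21 ± 0.12 between oxygen levels.

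Cox4i2 read -0.69, -0.00, 0.10 and 0.15 at 21% O2 and -0.71, -0.30, -0.46 and -1.20 at 85% O2, a difference of -0.56 ± 0.25 (limma adjusted p 0.151). Replicate 1 of the 21% group lay among the 85% arrays, and without it Cox4i2 was called. Cox4i2 was also 1.18 higher on slide 2 than on slide 1, a difference between slides larger than that between oxygen levels. Its partner Cox4i1, the form present in most tissues, differed by 0.13 ± 0.11. Cox6a2, the muscle form of subunit 6a, differed by -0.61 ± 0.51 and its partner Cox6a1 by -0.06. Cox7a1 differed by -0.25 ± 0.24 and Cox7a2 by -0.04 ± 0.12, and none of these passed the test. Cox7a2l, which helps join complexes III and IV, differed by 0.28 ± 0.14 (adjusted p 0.173).

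Markers of cells known for such isoforms moved unevenly between the same groups. Of 9 heart and skeletal muscle markers 1 was called higher and 1 lower, with sums of 2.45 to 2.69 at 21% and 2.13 to 2.74 at 85% O2. Of 7 pericyte markers, a list added after the data were seen, 1 was called higher and the median difference was 0.54, although their sums were lower, 3.69 to 4.51 at 21% against 3.42 to 4.05 at 85% O2. Their part in the isoform values was not tested. For the isoforms near background no fold is given: Cox7b2 was above background on 0 of 4 arrays at 21% and 2 of 4 at 85% O2, Cox8b on 2 of 4 and 0 of 4, and Cox8c on none of these 8.

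Some genes lay just short of the threshold, of which Atp5d and Uqcrh, and Uqcrb below, were named after their values were seen. Uqcrc1, a core protein of complex III, read 3.93, 3.98, 4.14 and 4.04 at 21% O2 and 4.16, 4.43, 4.45 and 4.51 at 85% O2, a difference of 0.37 ± 0.11 (limma adjusted p 0.0598). Atp5d, the delta subunit of ATP synthase, read 5.12, 4.98, 4.86 and 4.99 against 5.40, 5.13, 5.52 and 5.38, a difference of 0.37 ± 0.12 (0.0661). In both genes the groups narrowly did not overlap. Uqcrh, the hinge protein of complex III, differed by 0.41 ± 0.15 (0.0896) with overlap. Uqcrc1 and Uqcrh were called after normexp correction, and Atp5d and Uqcrh after quantile normalization.

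Lower in 85% O2 without passing the test were Ndufaf2, an assembly factor that stands in for a complex I subunit during assembly, Atp5g1, a c-ring gene, and Uqcrb of complex III. Ndufaf2 stood at 3.33, 3.35, 2.95 and 3.07 at 21% O2 and at 2.92, 2.87, 2.76 and 2.73 at 85% O2. The groups did not overlap, and the difference was -0.36 ± 0.13 (limma adjusted p 0.0873, or 0.0373 with median centring). Atp5g1 differed by -0.30 ± 0.12 (0.120), Uqcrb by -0.25 ± 0.10 (0.104), and both were also without overlap. Uqcrb was called lower with the mean of its probes (-0.35, adjusted p 0.0378). Among all 87 genes 7 were wholly higher and 4 wholly lower at 85% O2, against 23.9% of all features without overlap.

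Ndufv3 has 3 probes, whose oxygen differences had opposite signs, and only the positive difference was called. When probes were fitted singly, 16.2% of all probes and 7 of the 127 probes of these genes (5.51%) were called. This gene, on chromosome 17, has 2 transcripts in RefSeq. The probe used above, at chr17:31668209-31668268 (mm9), read 5.72, 6.05, 5.56 and 5.78 at 21% O2 and 5.70, 5.87, 5.40 and 5.17 at 85% O2, a difference of -0.24 ± 0.18 (limma over 41604 probes, adjusted p 0.375). The probe at chr17:31665148-31665207 read 0.64, 0.75, 0.75 and 0.91 at 21% O2 and 1.59, 1.58, 1.55 and 1.33 at 85% O2. The groups stood well apart, at 0.76 ± 0.11 and 1.51 ± 0.12 (SD, n = 4), and the difference was 0.75 ± 0.12 (SE; adjusted p 0.00696).

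That probe was called under every scaling tried (0.60 to 0.75), with the replicate block (adjusted p 0.0267) and in 8 of 8 fits that left out 1 array (adjusted p 0.0112 to 0.0292). The third probe, at chr17:31663758-31663817, differed by -0.57 ± 0.29 (0.204). The difference between the middle and the used probe within an array rose by 0.99 from 21% to 85% O2, with an exact two-sided permutation p of 0.0286, the smallest that 4 against 4 arrays can give. The probes were compared after their values were seen, when the groups of the middle probe already stood apart, so this p adds no support. Oxygen and slide cannot be told apart here either. The files do not say which transcript each probe detects. In vehicle the middle probe differed by 0.41 ± 0.11 and the used probe by 0.36 ± 0.10 between 6 and 24 h.

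**Figure D5:**
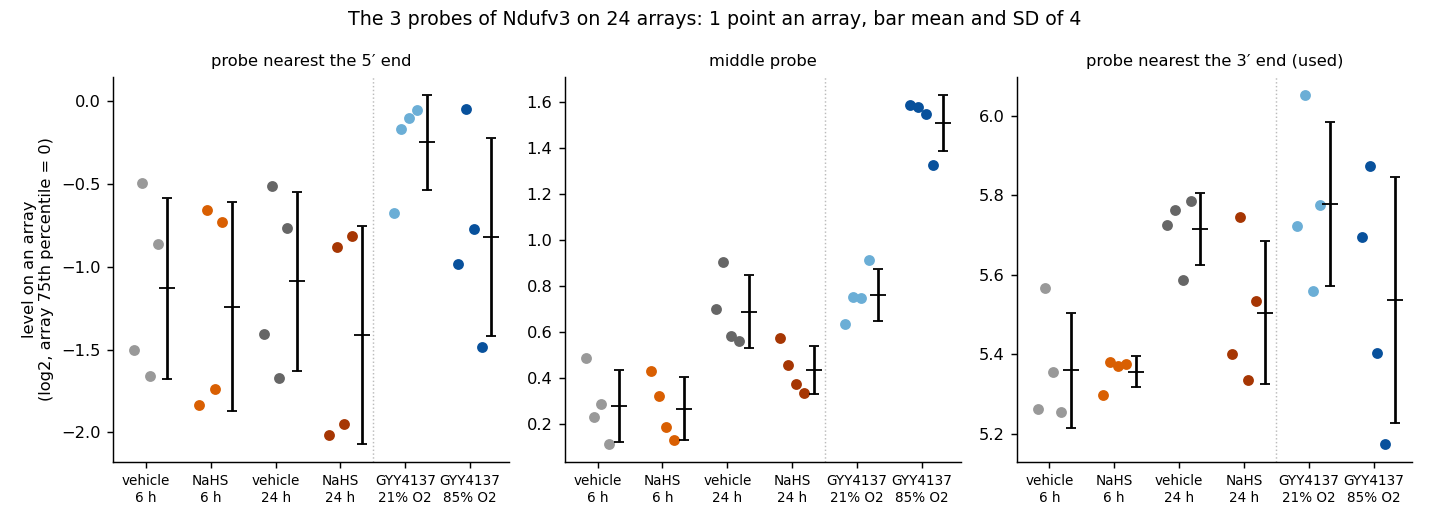
Log2 levels (vertical axes, relative to the array's 75th percentile) of the 3 Ndufv3 probes on 24 arrays by group (horizontal axis), with 1 point per array and bars for the mean and SD of 4. The middle probe is at 0.76 at 21% O2 and 1.51 at 85% O2, while the used probe is lower by 0.24 on average at 85% O2.

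The other genes of the pathway were read through lists. For the NaHS comparisons at 6 and 24 h, their interaction and both time comparisons, 0 genes were called in the lists of assembly factors, electron carriers and coenzyme Q, citric acid cycle, regulators, mitochondrial ribosome and mitochondrial DNA-encoded subunits. Between oxygen levels, 3 of 30 assembly factors rose and 1 fell, against the 17.1% of all features called. Sco2, a copper chaperone for complex IV, stood at 3.12, 3.11, 2.88 and 2.97 at 21% O2 and at 3.75, 3.60, 3.73 and 3.58 at 85% O2, a rise of 0.64 ± 0.11 (limma adjusted p 0.00760). Cox17, which hands copper to Sco proteins, stood at -3.19, -3.18, -2.83 and -2.79 against -4.11, -4.05, -3.45 and -4.03, a fall of 0.91 ± 0.18 (0.0148). Neither gene's groups overlapped, and both were called under all scalings and in 8 of 8 fits without 1 array. Cox17 also differed between slides: in the NaHS experiment its 8 arrays on slide 1 lay between -5.86 and -4.35 and its 8 on slide 2 between -2.66 and -1.94, with means 2.74 apart, more than the oxygen difference, which itself cannot be told apart from slides 3 and 4. The others that rose were Ndufaf3, a member above, and Sdhaf1, which loads iron-sulphur clusters into complex II (0.49 ± 0.11, adjusted p 0.0200, or 0.0874 with median centring).

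Among 16 regulators of mitochondrial genes 4 rose and 2 fell (37.5% called, against 17.1% of all features). Ppargc1a, the coactivator PGC-1 alpha of mitochondrial biogenesis, read -4.04, -4.33, -3.43 and -3.04 at 21% O2 and -2.59, -2.78, -2.31 and -2.39 at 85% O2, a rise of 1.20 ± 0.28 (limma adjusted p 0.0238). Its nuclear partners Esrra (0.43 ± 0.11, adjusted p 0.0343), Esrrb (0.89 ± 0.25, 0.0457) and Nrf1 (0.43 ± 0.10, 0.0270) were also called higher, the last with 0.22 when its probes were averaged. Tfb1m, a methyltransferase for mitochondrial ribosomal RNA, fell by 0.81 ± 0.19 (0.0269) and Gabpb2, a subunit of the factor GABP, by 0.52 ± 0.13 (0.0316). Ppargc1a, Tfb1m and Gabpb2 were called under all scalings, and without 1 array in 5, 4 and 3 of 8 fits. With median centring Esrra (adjusted p 0.134), Esrrb (0.0838) and Nrf1 (0.113) were not called, nor were Esrra (0.0673) and Nrf1 (0.0524) with the replicate block. All genes of this list named here other than Ppargc1a and Tfb1m, and Sdhaf1, were chosen after their values were seen.

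Of 20 electron carrier and coenzyme Q genes, 2 rose and 1 fell (15%, against 17.1% of all features): Coq10a by 0.77 ± 0.16 (limma adjusted p 0.0175), Adck3 by 0.53 ± 0.13 (0.0269), and Coq2, which attaches the tail of coenzyme Q, by -0.53 ± 0.14 (0.0408). Adck3, named after its values were seen, differed by 0.02 with its probes averaged. Of 17 citric acid cycle genes only Fh1, fumarase, was called, at -0.36 ± 0.10 (0.0380, or 0.0721 with the replicate block). Of 76 mitochondrial ribosome genes 0 were called, with 15 at an unadjusted p under 0.05 (19.7%, against 35.0% of all features). Among the 13 subunits encoded by mitochondrial DNA, ND1 rose: it read 3.77, 3.47, 3.69 and 3.33 at 21% O2 and 4.11, 3.94, 4.19 and 4.12 at 85% O2, a difference of 0.52 ± 0.13 (0.0298, or 0.0807 with median centring). With 1 array left out at a time, the calls of Coq10a, Adck3, Coq2, Fh1 and ND1 held in 7, 4, 2, 1 and 3 of 8 fits.

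ND6, which lies on the opposite strand of mitochondrial DNA from the other subunit genes, had the largest difference of that list in time and was named after its values were seen. It read 0.86, 0.07, 1.19 and 1.29 in vehicle at 6 h and -0.12, -0.31, -0.35 and -0.25 at 24 h. The groups did not overlap, and the difference was -1.11 ± 0.25 (limma adjusted p 0.0535, or 0.0232 with the replicate block, 0.0253 with slide as a block, and 0.0280 after normexp correction). ND6 was not called after quantile normalization (0.0513), with median centring (0.99998) or with only the compared groups in the fit (0.298). With 1 array left out at a time it was called in 1 of 8 fits (adjusted p 0.0208 to 0.135). Within slide 1 the difference was -1.26 and within slide 2 -0.96. In NaHS the difference between the times was -1.26 ± 0.25 (0.0975), and all 13 estimates of the list were below 0 there. Between oxygen levels ND6 differed by -0.80 ± 0.32 (0.116, or 0.0365 with the replicate block).

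The promoters were read for letters the genes share. RefSeq windows (GRCm38.p6) of 300 bases, from 250 before the transcription start to 50 after, were found for 74 of the 90 genes, 80 windows in all, and were searched on both strands for 5 motifs: ACGTG and GCGTG, the core letters bound by hypoxia-inducible factors, GCGCATG, a form of the NRF1 site, CCGGAAG, the site of GABP and other ETS factors, and AGATGGC, that of YY1. GCGCATG was in 14 of 80 windows (17.5%), against 3.91% of all 32851 windows. CCGGAAG was in 21.2% against 8.86%, AGATGGC in 17.5% against 6.40%, GCGTG in 55.0% against 32.4% and ACGTG in 27.5% against 19.6%. In 67 windows at least 1 of the 5 was present, a count that was not made over all windows. In 13 windows ACGTG and GCGTG were both present, with 0 overlapping matches. These are matches of letters and no measure of binding. The windows were not matched for base composition, whose part in these shares was not tested.

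Below are 250 bases before the start for Ndufaf3 and Cox6b2, which were called, and for Sdhb, the iron-sulphur subunit of complex II, whose oxygen difference was -0.03 ± 0.11. They are shown to set called genes beside one that was not called, and capitals mark the motifs. Ndufaf3 (chr9:108567437-108567686, minus strand) holds ACGTG on the reverse strand 178 bases before the start and GCGTG at 117 and 10. Sdhb (chr4:140961021-140961270, plus strand) holds GCGTG at 123 and 25 and GCGCATG at 53, all on the reverse strand. Cox6b2 (chr7:4753095-4753344, minus strand) holds none of the 5.
Ndufaf3: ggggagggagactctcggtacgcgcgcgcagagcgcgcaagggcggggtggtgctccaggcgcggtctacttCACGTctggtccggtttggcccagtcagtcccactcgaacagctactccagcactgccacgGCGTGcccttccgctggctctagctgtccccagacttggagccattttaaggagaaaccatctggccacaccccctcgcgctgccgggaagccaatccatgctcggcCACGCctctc
Cox6b2: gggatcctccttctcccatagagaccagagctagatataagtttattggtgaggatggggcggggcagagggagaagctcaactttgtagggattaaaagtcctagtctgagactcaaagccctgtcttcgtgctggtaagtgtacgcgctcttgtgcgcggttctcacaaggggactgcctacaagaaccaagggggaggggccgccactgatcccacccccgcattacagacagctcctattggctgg
Sdhb: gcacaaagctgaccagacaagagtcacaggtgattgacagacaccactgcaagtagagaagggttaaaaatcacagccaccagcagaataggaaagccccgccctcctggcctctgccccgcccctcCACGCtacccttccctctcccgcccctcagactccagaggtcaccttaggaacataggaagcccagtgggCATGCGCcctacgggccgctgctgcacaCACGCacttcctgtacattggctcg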

How the data were processed

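Total RNA of 24 samples was labelled with Cy3 and hybridised to single-colour Agilent arrays, 4 per group in 6 groups. The deposited intensity values (processed signal) and the other columns used, such as background flags, come from Agilent Feature Extraction 10.7.3.1, per the file headers and the submitters' processing notes. The deposited value table holds log2 values whose distributions are the same within each experiment, which reads as quantile normalization; its steps are not given in the sources used here, and it served as an alternative. The members and lists were chosen with earlier results of these data known.

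Control spots were left out and spots of a probe averaged. Signals were divided by the array's 75th percentile and log2 transformed. A feature was tested when at least 4 arrays of its experiment were well above background. limma 3.58.1 (R 4.3.3) was fitted to all features, with 1 probe per gene, separately for the 16 arrays of the NaHS experiment and the 8 of the GYY4137 experiment, with Benjamini-Hochberg adjustment over all features tested and a threshold of 0.05. The comparisons of the NaHS experiment share groups. The scripts were tested on simulated data.

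Named genes were those called and, where fewer than 6 were called, in each direction the 2 estimates of smallest p, plus central subunits, isoform pairs and the called extremes of related lists. Same-numbered arrays deviated together: correlations of deviations from group means were 0.54 to 0.78 in the NaHS experiment, where numbers follow slides, and 0.19 to 0.30 between oxygen groups. Between arrays of other numbers the highest correlations were 0.71 in the NaHS experiment and 0.22 between oxygen groups. In the NaHS experiment pairing therefore cannot be told apart from slide. By the rule of all pairs above 0.1 the numbers were taken as pairs. The main fits had no block, and blocked values are given where they change a call. In the NaHS experiment slide differences therefore stayed in the spread of the main fits, which widens SEs and raises p-values. For NaHS at 6 h 0.567% of all features had an unadjusted p under 0.05, fewer than that threshold passes by chance. These main fits are thus conservative. Alternatives were normexp background correction, quantile normalization, median centring, the deposited table, no filter on dim probes, mean of all probes, replicate and slide blocks, single slides and leaving out each array. The precision is limited by 4 arrays per group. Probe positions are those of the files (mm9). The used probe lay on the chromosome RefSeq gives for 86 genes and on another for Atp5l and Atp5j2, which may detect near-identical copies and are uncertain. No reference genome was used here. For 1 gene, which is part of the counts, values are not reported here.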

Additional observations from a re-analysis of the deposited data

Results flagged for a closer look

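In 20 of 336 group values tested, 1 of the 4 arrays lay apart from the other 3 by more than the 95% limit of Dixon's gap test allows, where chance alone gives about 16.8. All values are log2 levels relative to the array's 75th percentile, and none is weighed here.

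Among genes of the report's oxygen comparison, Cox6b2 stood at 0.22 in 85% O2 replicate 1, with the others at 0.56 to 0.63. Uqcrh stood at 6.45 in 85% O2 replicate 4, with the others at 6.77 to 6.81. Atp5j, the coupling factor subunit of complex V, stood at 5.84 in 21% O2 replicate 1, with the others at 5.65 to 5.67. Of the related genes, Cox17 stood at -3.45 in 85% O2 replicate 3 (others -4.11 to -4.03), Coq2 at 3.16 in 85% O2 replicate 1 (others 2.79 to 2.82) and Gabpb2 at -1.85 in 21% O2 replicate 4 (others -1.64 to -1.62).

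In vehicle at 6 h, replicate 4 was the low array for Atp5g3 at 6.94 (others 7.20 to 7.23), Ndufc1 at 5.06 (others 5.34 to 5.36) and Ndufaf2 at 2.90 (others 3.25 to 3.29). In vehicle at 24 h, replicate 4 was low for Ndufa6 at 4.38 (others 4.60 to 4.62), and replicate 2 was low for Atp5o at 4.71 (others 4.82 to 4.84).

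With NaHS at 6 h, Cox7a2 stood at 5.29 in replicate 4 (others 5.14 to 5.15), Ndufv3 at 5.30 in replicate 1 (others 5.37 to 5.38), Tfb1m at 0.96 in replicate 3 (others 0.65 to 0.70) and Adck3 at -4.33 in replicate 4 (others -3.63 to -3.59). The mean of the 4 complex I assembly factors was 2.14 in replicate 2 (others 2.27 to 2.28). With NaHS at 24 h, Atp5j stood at 5.22 in replicate 4 (others 5.40 to 5.42), Ndufaf3 at 0.79 in replicate 2 (others 0.98 to 1.01), Cox6a2 at 1.16 in replicate 2 (others -0.24 to -0.05) and Esrrb at -0.81 in replicate 4 (others -1.57 to -1.56).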

How the results depend on the processing

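The count of called respiratory chain genes was 0 under every alternative for NaHS at 6 h, NaHS at 24 h, their interaction and time in NaHS. For time in vehicle it moved from 0 to 3 after normexp correction, to 3 with slide as a block and to 2 with the replicate block, and leaving out each array gave 0 throughout. For oxygen it moved from 3 to 5 after normexp correction and to 1 with no filter on dim probes, and ranged from 0 to 3 when single arrays were left out, with 0 without 21% O2 replicate 2 or 85% O2 replicate 3. With the replicate number as a block the oxygen count was 2, without Cox6b2, and outside the values given in the report the pairing left the calls of respiratory chain genes as they were. Among single genes in single comparisons, 898 alternative values kept direction and side of the threshold, 94 were no longer past it, 31 were newly past it and 13 changed sign. Those 13 were small differences: Cox8a with NaHS at 24 h (0.0025 after quantile normalization and 0.0032 in the deposited table), Atp5j in the interaction (-0.22 with the mean of its probes), and for oxygen Cox4i1 (-0.012 with median centring), Cox6a1 (0.082 after quantile normalization and in the deposited table, 0.054 without 85% O2 replicate 4) and Cox7a2 (0.045 after normexp, 0.023 after quantile normalization and in the deposited table, 0.0049 and 0.0040 without 21% O2 replicates 1 and 2, 0.013 without 85% O2 replicate 4). Over all arrays left out, these 2 genes ranged from -0.13 to 0.054 (Cox6a1) and from -0.094 to 0.013 (Cox7a2). The cause was not tested. With 4 arrays per group on confounded slides, oxygen differences cannot be told apart from slide differences, and probes near background give no fold.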

Other observations

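Other probes of the respiratory chain genes add values to the oxygen comparison. Over all probes tested in genes of this list, 6 were higher and 1 lower in 85% O2 by limma, and 0 genes had probes called in both directions. The 3 probes of Uqcrb all had negative differences, -0.25, -0.46 (adjusted p 0.0232) and -0.34. A second probe of Ndufa3, a small membrane subunit of complex I, differed by 0.47 (adjusted p 0.0346), and 1 of 6 probes of Atp5l, a membrane subunit of complex V whose used probe lies on another chromosome than the gene, by 0.37 (0.0397). These probes were singled out after their values were seen.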
